A study of Mus musculus with 2 samples.

Results

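Mir335, Mir296, Mir298, Mir483 and Mir675 are mouse microRNA (miRNA) genes that lie at imprinted loci, where 1 parental copy of a gene is expressed and the other is silenced. They were taken by gene identifier from the 1973 listed miRNA genes, and all 5 were found. By textbook knowledge Mir335 at Mest, Mir296 and Mir298 at the Gnas locus, and Mir483 at Igf2 are expressed from the paternal allele, and Mir675 at H19 from the maternal allele. The samples form 1 group of healthy limb tissue from B6NCrl mouse embryos of both sexes, untreated and with no transgene named, at embryonic day 11.5. Replicate 2 pooled limbs of 88 embryos and replicate 1 those of 109. The labels give both replicates the same donor identifier, so the spread given here is that of these 2 libraries. Neither library separates the parental alleles, so the allele of origin is background, and nothing in the counts measures it.

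A miRNA is cut from a hairpin RNA, and the mature strand finds its messenger RNAs mainly by pairing through its seed, the bases from position 2 to 8. Imprinted genes are known as regulators of fetal and placental growth, with paternally expressed genes such as Igf2 often promoting growth and maternally expressed ones such as H19 often restraining it. Mest is active in embryonic mesoderm and its derivatives, the tissue that makes up most of a limb bud.

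The mature strands of the 5 hairpins are shown because the seed defines what each can pair with, and because reads are credited to a gene only if its sequence can be told from others. They are from RefSeq on GRCm38.p6, the mm10 assembly, written 5′ to 3′ with the seed in capitals.
mmu-miR-335-5p: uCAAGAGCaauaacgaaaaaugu
mmu-miR-335-3p: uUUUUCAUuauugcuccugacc
mmu-miR-296-5p: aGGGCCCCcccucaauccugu
mmu-miR-296-3p: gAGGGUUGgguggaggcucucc
mmu-miR-298-5p: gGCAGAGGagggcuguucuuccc
mmu-miR-298-3p: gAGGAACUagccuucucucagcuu
mmu-miR-483-5p: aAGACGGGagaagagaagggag
mmu-miR-483-3p: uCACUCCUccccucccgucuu
mmu-miR-675-5p: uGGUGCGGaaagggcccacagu
mmu-miR-675-3p: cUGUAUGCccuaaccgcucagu

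No pair of these arms shared a seed, and no other miRNA in the RefSeq table of 1738 mature strands carried any of them. The genes in that table held 98.1% of sense counts in each library, and the table is not complete. With the shorter seed of bases 2 to 7, 4 arms had 1 other carrier each. The carriers listed in the files were Mir6986 for miR-335-3p, Mir5621 for miR-296-5p and Mir3110 for miR-483-3p, with at most 4 sense counts in a library. No member shared a stretch of 20 nt with another annotated miRNA hairpin. No mature strand matched another annotated transcript on either strand, except that both Mir675 strands lie within H19 itself. Multimapping reads, 23.4% of reads in replicate 2 and 24.7% in replicate 1, are in no gene's count. Copies outside annotated transcripts were not searched.

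The hairpins of the most and the least abundant member are shown whole, with the mature arms in capitals.
Mir335: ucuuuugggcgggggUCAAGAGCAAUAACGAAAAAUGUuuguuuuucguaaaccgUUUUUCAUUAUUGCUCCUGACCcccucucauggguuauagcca
Mir675: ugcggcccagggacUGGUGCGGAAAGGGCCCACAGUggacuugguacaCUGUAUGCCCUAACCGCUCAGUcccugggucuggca

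The Mir335 hairpin is 98 nt long with 42.9% G and C, against a median of 50% over the 295 hairpins that reached 10 CPM (sense counts scaled to a library total of 1000000) in both libraries. The other members were richer in G and C, at 63.3% for Mir296, 63.1% for Mir675, 58.9% for Mir483 and 53.7% for Mir298. Mir675 had the most stable predicted fold of the 5, at −56.0 kcal/mol, and only 0.678% of the 295 hairpins were more stable per nucleotide. Mir335 folded at −44.3 kcal/mol, Mir296 at −43.2, Mir298 at −42.7 and Mir483 at −33.8 kcal/mol. The median of those hairpins was −37.3 kcal/mol. These totals are not scaled by length, and Mir483 at 73 nt is shorter than Mir335. Per nucleotide, 40.7% of the 295 hairpins were more stable than Mir335 and 34.9% more stable than Mir483. The shares more stable than Mir298 and Mir296 were 16.6% for Mir298 and 11.2% for Mir296.

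The members sit differently in their loci. Mir335 (ENSMUSG00000065501.1) lies on the plus strand at chr6:30741299-30741396, in an intron of 7 of the 11 annotated Mest transcripts. Mir296 (ENSMUSG00000065521.1) at chr2:174267047-174267125 and Mir298 (ENSMUSG00000065410.1) at chr2:174267504-174267585 are 378 nt apart on the minus strand. They overlap no annotated gene in GENCODE M21. Nespas, the antisense transcript of the Gnas locus, ends 13.7 kb upstream of Mir298 and 14.1 kb upstream of Mir296 on the same strand in that annotation. Mir483 (ENSMUSG00000070140.1) lies at chr7:142654924-142654996 on the minus strand, in an intron of 7 of 9 Igf2 transcripts. Mir675 (ENSMUSG00000076275.1) lies on the same strand at chr7:142577064-142577147, in an exon of 3 of 7 H19 transcripts and 77.8 kb from Mir483. Of the 5, Mir675 is the only one that overlaps an exon of another gene on its own strand in this annotation. Within 50 kb, no other listed miRNA gene had a count near any member, apart from Mir296 and Mir298 themselves.

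The libraries held 7420829 reads in replicate 2 and 6661559 in replicate 1, and sense counts of miRNA genes numbered 3459176 in replicate 2 and 2953085 in replicate 1. A count of 0 allows up to 0.867 CPM in replicate 2 and 1.02 CPM in replicate 1. This floor and the Wilson intervals given here measure counting error alone, since copies made by PCR do not count separate molecules. Markers known from limb mesenchyme and cartilage were present: Mir140, Mir196b, Mir10b and Mir214 all exceeded 10000 CPM. Other cell types were represented too. The endothelial marker Mir126a stood at 24135 CPM in replicate 2 and 24254 CPM in replicate 1, above Mir140. The ectoderm markers Mir205 and Mir203 summed to 9845 CPM in replicate 2 and 8281 CPM in replicate 1. The blood cell markers Mir223, Mir451a and Mir144 summed to 770.1 CPM in replicate 2 and 626 CPM in replicate 1, and the endocrine marker Mir375 stood at 904 CPM in replicate 2 and 877 CPM in replicate 1. The myoblast marker Mir206 was at 552 CPM in replicate 2 and 529 CPM in replicate 1, and the hepatocyte marker Mir122 at 14.7 CPM in replicate 2 and 21.7 CPM in replicate 1. Markers of neurons, Mir124a and Mir9, are encoded by several hairpins with the same mature strand, so their reads can be multimapping and their counts do not measure their level. The part of each cell type in the members' levels was not tested.

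Mir335, the Mest hairpin, had the highest count of all listed genes in both libraries. This rank, and each fold to other genes given here, holds for reads credited to a single gene, since hairpins with duplicate mature strands lose their multimapping reads and can be counted too low. Human miR-335 is known as a suppressor of metastasis in breast cancer. It had 383488 sense counts, or 110861 CPM, in replicate 2 and 333290 counts, or 112862 CPM, in replicate 1. The Wilson 95% intervals were 110531 to 111192 CPM in replicate 2 and 112501 to 113223 CPM in replicate 1, so they did not overlap. Mir335 stood 1.54-fold above the next gene, Mir322, which reached 73356 CPM in replicate 2 and 71826 CPM in replicate 1, and the values of these genes did not overlap. It was 426-fold above the median of the 295 genes at 10 CPM. The 239 lowest of those genes together reached 110300 CPM, less than Mir335 alone. As a share of all reads, unmapped and multimapping ones included, Mir335 held 5.17% in replicate 2 and 5.00% in replicate 1.

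Mir298 and Mir296, the pair beside Nespas, followed at similar levels. Mouse miR-298 is known to bind the messenger RNA of the protease Bace1, and miR-296 is known from mouse embryonic stem cells as a regulator of Nanog. Mir298 had 29668 counts, or 8577 CPM, in replicate 2 and 26878 counts, or 9102 CPM, in replicate 1. Mir296 had 27083 counts, or 7829 CPM, in replicate 2 and 23565 counts, or 7980 CPM, in replicate 1. Mir298 was the higher of the pair in both libraries, and their values did not overlap. The log2 ratio of Mir298 to Mir296 was 0.16 ± 0.04 (SD, n = 2), or 1.12-fold, with a counting error of 0.01 in each library.

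Mir483, the Igf2 hairpin, was close to that pair. Human miR-483 is known for high levels in Wilms tumours, along with its host gene. It had 23714 counts, or 6855 CPM, in replicate 2 and 20301 counts, or 6875 CPM, in replicate 1, and the Wilson intervals of the libraries overlapped. The log2 ratio of Mir296 to Mir483 was 0.20 ± 0.02, and that of Mir298 to Mir483 was 0.36 ± 0.06 (SD, n = 2). Mir335 exceeded the sum of Mir296, Mir298 and Mir483 by 2.24 ± 0.01 log2 units, or 4.74-fold.

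Mir675, the H19 hairpin, was the lowest member. It is known in mouse as a restraint on placental growth that acts in part through the growth factor receptor Igf1r. It had 652 counts, or 188 CPM, in replicate 2 and 617 counts, or 209 CPM, in replicate 1. The Wilson intervals were 175 to 204 CPM in replicate 2 and 193 to 226 CPM in replicate 1, which overlap. Its mean, 199 ± 14.5 CPM (SD, n = 2), was 0.757 of the median of the 295 genes. Since the hairpin lies in an H19 exon, a short fragment of H19 and a mature Mir675 strand cannot be told apart in these counts.

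**Figure D1:**
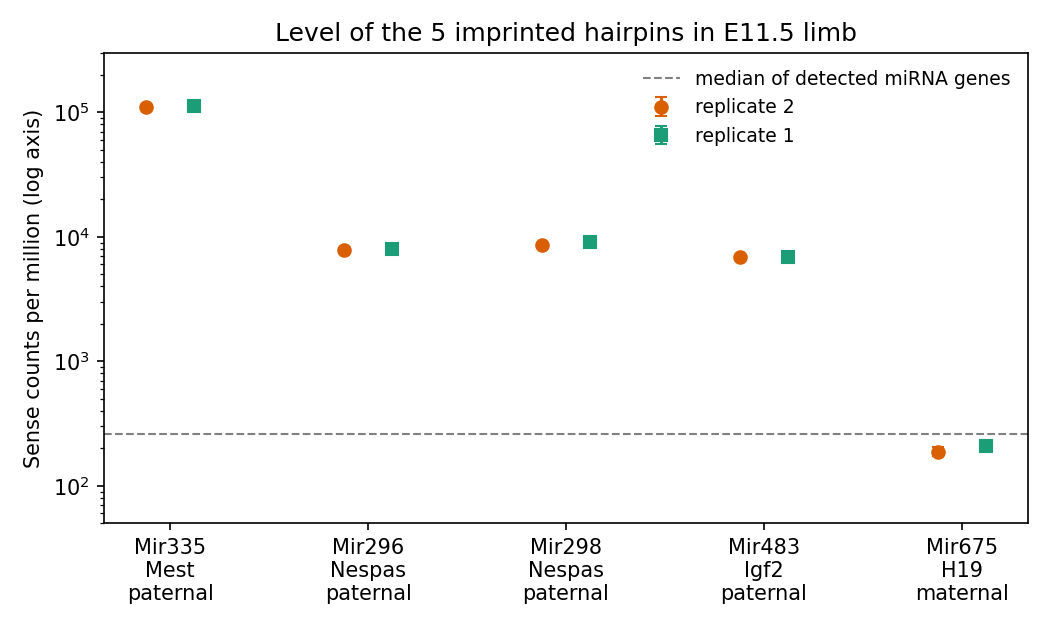
Sense counts in CPM (log axis) of the 5 hairpins, with replicate 2 as circles and replicate 1 as squares, Wilson 95% intervals as bars (mostly smaller than the symbols) and the median of the 295 detected genes as a dashed line. Mir335 lies at 110861 CPM in replicate 2 and 112862 CPM in replicate 1, Mir296, Mir298 and Mir483 lie between 6855 and 9102 CPM, and Mir675 lies below the line.

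All 5 members were detected, here meaning 10 CPM or more in both libraries, as were 15.0% of the 1973 listed genes. The 4 paternally expressed members also passed 5000 CPM in both libraries, a level that 2.03% of listed genes reached. By mean level they ranked 1 for Mir335, 25 for Mir298, 28 for Mir296 and 30 for Mir483, while Mir675 ranked 157. The genes nearest in level to Mir298 were Mir23a above and Mirlet7i below, and those nearest to Mir296 were Mir100 above and Mir181d below. Mir23a, at 8962 CPM in replicate 2 and 9205 CPM in replicate 1, overlapped with Mir298. Mir100, at 8298 CPM in replicate 2 and 7673 CPM in replicate 1, overlapped with Mir296, and Mir181d did not. Mirlet7i, at 7188 CPM in replicate 2 and 9122 CPM in replicate 1, overlapped with Mir298 too. Mir483 lay between Mir181d and Mir181c and overlapped with neither. Mir675 lay between Mir669o, at 204 CPM in replicate 2 and 213 in replicate 1, and Mir141, at 207 CPM in replicate 2 and 188 in replicate 1, and overlapped with both. Where values overlap, the ranks rest on differences no larger than the spread between the libraries.

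**Figure D2:**
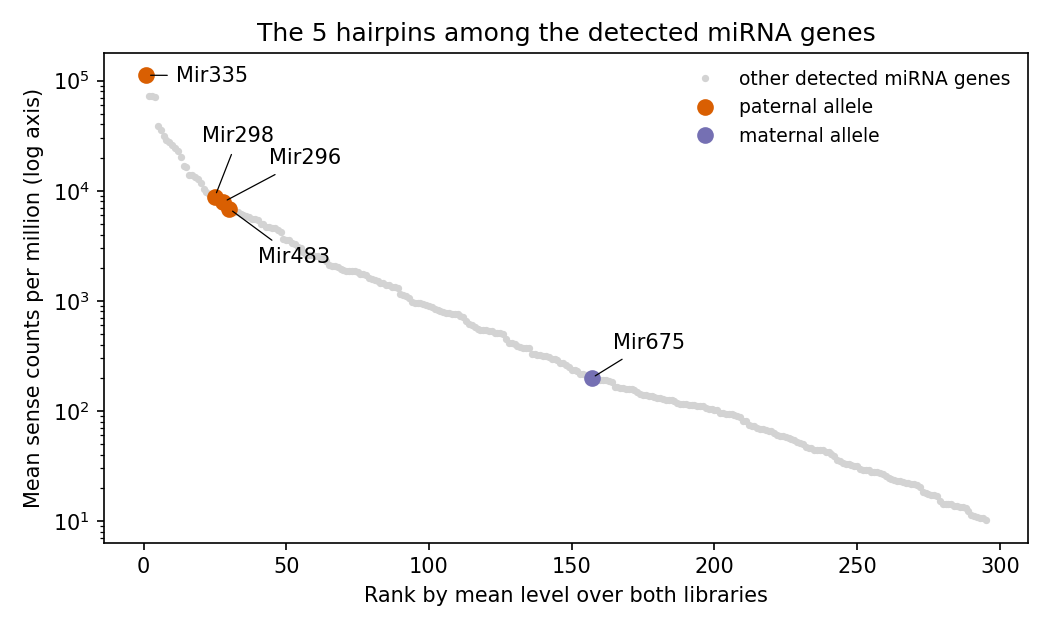
Mean CPM over both libraries (log axis) against rank for the 295 detected genes, with the paternally expressed hairpins in orange and Mir675 in purple. Mir335 holds rank 1, Mir298, Mir296 and Mir483 sit between ranks 25 and 30, and Mir675 sits at rank 157.

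The contrast between loci of paternal and maternal expression was made within each library, as a log2 ratio to Mir675. Each of the 4 paternally expressed hairpins exceeded Mir675 in both libraries. Mir335 exceeded it by 9.20 log2 units in replicate 2 and 9.08 in replicate 1, with a mean of 9.14 ± 0.09 (SD, n = 2), or 563-fold. The ratio of Mir298 was 5.51 in replicate 2 and 5.44 in replicate 1, with a mean of 5.48 ± 0.04, or 44.5-fold. Mir296 gave 5.38 in replicate 2 and 5.25 in replicate 1, with a mean of 5.31 ± 0.09. Mir483, which shares its chromosomal domain with Mir675, gave 5.18 in replicate 2 and 5.04 in replicate 1, with a mean of 5.11 ± 0.10, or 34.6-fold. The counting error of each ratio to Mir675 was about 0.06 in each library, from the few counts of Mir675. No test was made, because 2 libraries allow an exact sign-flip test no p under 0.5. Every ratio was many times its SD. That SD does not measure a capture bias shared by both libraries, and with 1 maternal member the contrast rests on Mir675 alone.

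**Figure D3:**
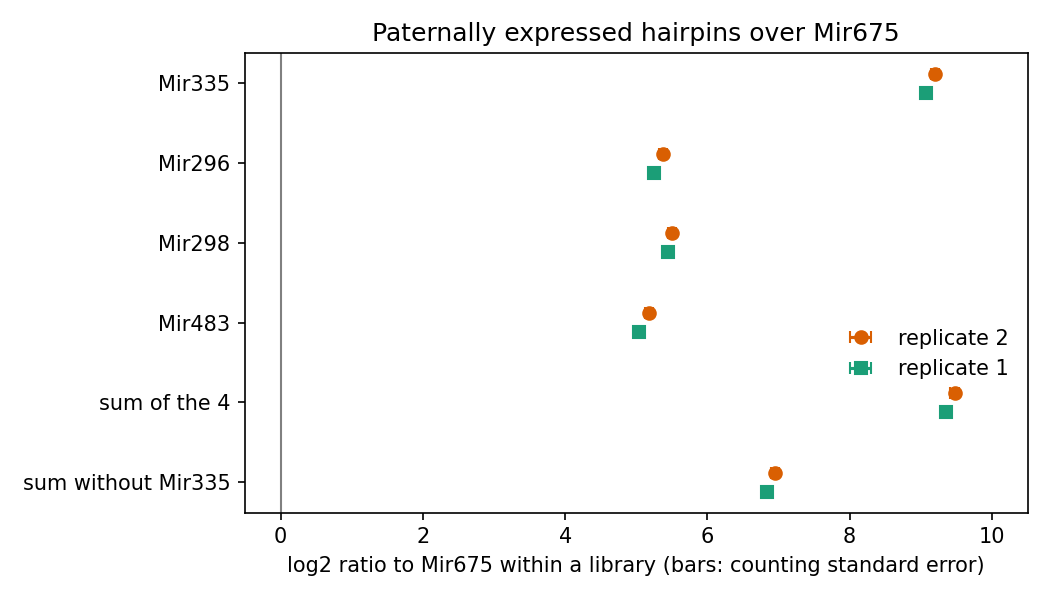
Log2 ratio to Mir675 within replicate 2 (circles) and replicate 1 (squares) for each paternally expressed hairpin, for their sum and for the sum without Mir335, with counting standard errors as bars. Mir335 lies near 9.14, the other 3 hairpins lie between 5.04 and 5.51, and each ratio is above 0 in both libraries.

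The sum of the 4 paternally expressed members held 13.4% of sense counts in replicate 2 and 13.7% in replicate 1, and Mir335 made up 82.7% of it in replicate 2 and 82.5% in replicate 1. Without Mir335 the other 3 held 2.33% in replicate 2 and 2.40% in replicate 1. Their sum exceeded Mir675 by 6.89 ± 0.08 log2 units (SD, n = 2), or 119-fold.

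Adding other imprinted miRNA loci changed this contrast. The Sfmbt2 gene on chromosome 2, whose intronic miRNAs are paternally expressed, held 107 listed genes, and the Dlk1-Dio3 region on chromosome 12, whose miRNAs are maternally expressed, held 59. Of the Sfmbt2 genes 8 were detected, led by Mir467d at 831 CPM in replicate 2 and 935 CPM in replicate 1, Mir467e and Mir467c. Of the Dlk1-Dio3 genes 43 were detected, led by Mir411 at 6102 CPM in replicate 2 and 5739 CPM in replicate 1, Mir487b and Mir431. In sense counts, Mir335, Mir296, Mir298 and Mir483 each had a higher mean than any gene of either list. In the same counts, 26 Dlk1-Dio3 genes and 5 Sfmbt2 genes stood above Mir675. This ranking leaves out the opposite-strand counts of the Dlk1-Dio3 list, 40665 in replicate 2 and 30886 in replicate 1. The median of detected genes was 236 CPM in the Sfmbt2 list and 515 CPM in the Dlk1-Dio3 list, against 262 CPM over all detected genes. In the Sfmbt2 list 104 of 107 genes, including all 8 detected, share a 20-nt stretch with another hairpin, as do 8 of the 59 Dlk1-Dio3 genes, so their counts can be too low.

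Over all these loci the paternal side held 13.7% and the maternal side 4.91% of sense counts in replicate 2, and in replicate 1 the paternal side held 13.9% and the maternal side 4.54%. The log2 ratio of paternal to maternal was 1.55 ± 0.10 (SD, n = 2), or 2.92-fold. Without Mir335 the ratio was −0.85 ± 0.11, with 2.58% on the paternal side and 4.91% on the maternal side in replicate 2, and 2.66% on the paternal and 4.54% on the maternal side in replicate 1. In reads credited to a single gene, the direction of the contrast over all loci therefore rested on Mir335. All counts of the Sfmbt2 list, but only part of those of the Dlk1-Dio3 list, came from genes that share a 20-nt stretch. Multimapping reads, which are in no gene's count, can thus be missing more from the paternal side. The direction without Mir335 when such reads are included was not tested. These sets were joined after the levels were seen, and no test was made.

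**Figure D4:**
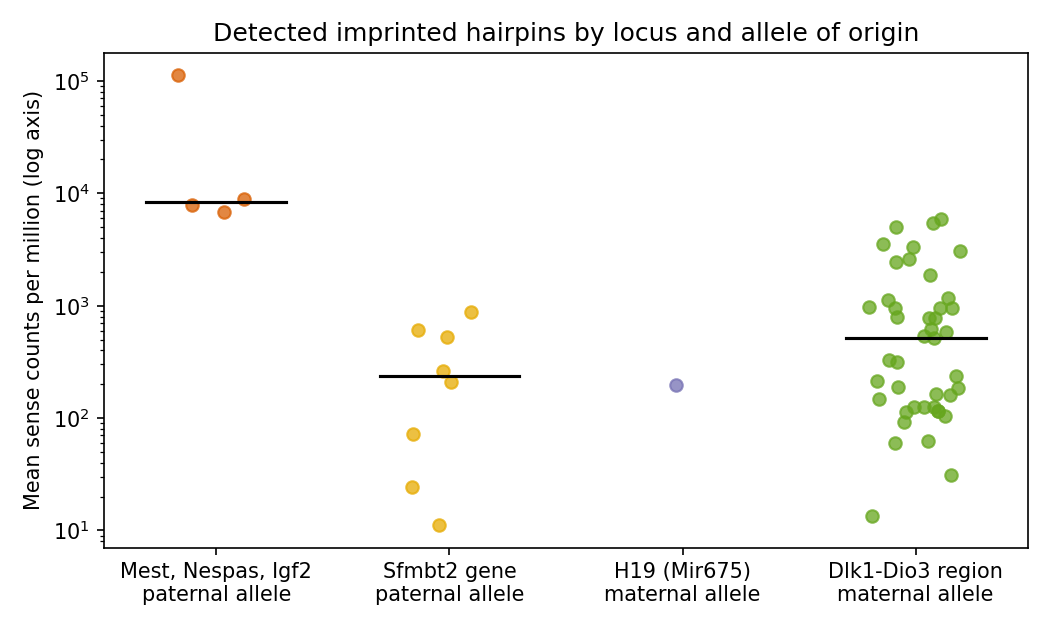
Mean CPM (log axis) of each detected imprinted hairpin, by locus and by the allele known to express it, with lines at the medians of groups with more than 1 hairpin. The 4 hairpins at Mest, near Nespas and at Igf2 lie from 6865 to 111861 CPM, above all Sfmbt2 and Dlk1-Dio3 hairpins in sense counts. Mir675 lies at 199 CPM.

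Between the libraries the members differed little. All 5 had log2 ratios of replicate 2 over replicate 1 below 0, from −0.02 for Mir483 to −0.16 for Mir675. The test was a two-sided exact binomial one on library sizes scaled by TMM, with Benjamini-Hochberg adjustment over 422 genes. It called 3 of the 5 members, all lower in replicate 2, where it called 21.3% of all tested genes in either direction and 11.8% lower. Tested genes had as few as 10 counts, where small differences cannot pass, so these shares are not matched to the members' levels. Mir335 had a log2 ratio of −0.04 with a counting error of 0.003 (adjusted p = 3.37e-28 by the exact binomial test). Mir298 had −0.10 with an error of 0.01 (adjusted p = 9.47e-15 by that exact test), and Mir296 had −0.04 with an error of 0.01 (adjusted p = 0.00996 by that exact test). Mir483 at −0.02 (adjusted p = 0.497) and Mir675 at −0.16 (adjusted p = 0.172), by the same exact test, did not pass. The absolute log2 ratio of the 201 tested genes at a mean of 100 CPM or more had a median of 0.08. Mir335, Mir296 and Mir483 lay below that median in size, and Mir298 and Mir675 above it. The calls at Mir335 and Mir296 mark folds of 0.974 at Mir335 and 0.972 at Mir296, and the call at Mir296 was lost with total counts as the scaling (adjusted p = 0.125 by the exact test). With the overdispersion averaged over genes, 0 of the 5 passed, and with that of the median gene 2 passed, Mir335 and Mir298. The median log2 ratio was −0.04 over the members and 0.00 over all tested genes. Of the 10 tested Sfmbt2 genes 0 were called higher and 1 lower, Mir467d at −0.18, and the list's median was −0.03. Of the 48 tested Dlk1-Dio3 genes 12 were called higher and 0 lower, with a median of 0.09. Over all 422 tested genes 40 were called higher and 50 lower. Neither list was matched to all tested genes in level.

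**Figure D5:**
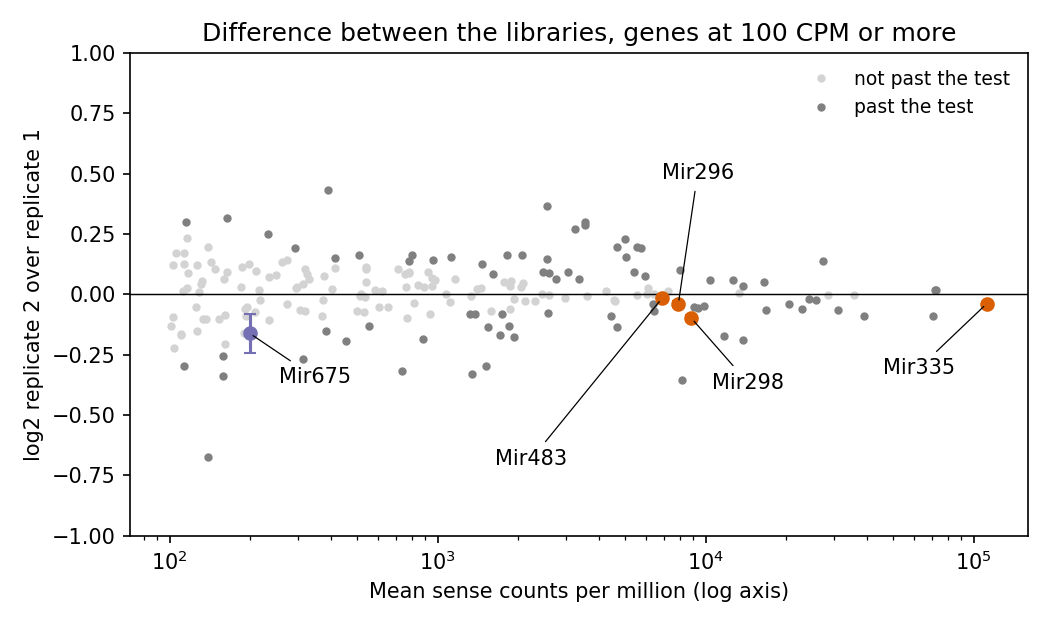
Log2 ratio of replicate 2 over replicate 1 against mean CPM (log axis) for the tested genes at 100 CPM or more, with genes past the exact binomial test in dark grey, members labelled and their counting standard errors as bars; 2 of the 201 genes lie outside the axis. The members lie between −0.16 and −0.02, within the spread of genes at similar levels.

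Reads on the strand opposite the members were nearly absent. The opposite-strand column held 1 count at Mir335 in replicate 2 and 0 in replicate 1, and 0 counts at Mir296, Mir298, Mir483 and Mir675 in either library.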

How the data were processed

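Small RNA was sequenced from 2 libraries of 1 group. The authors deposited raw counts of reads for each miRNA gene, not normalized. Notes deposited with each sample name assembly mm10 and GENCODE M4, and no aligner or counter is given in the sources used here. A gene is a hairpin, so its arms cannot be told apart. The sense column was read from the values. Lines that name no gene (unmapped, multimapping or outside features) held, with opposite-strand reads, 53.4% of reads in replicate 2 and 55.7% in replicate 1, and stayed out of library sizes and tests.

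Symbols and coordinates came from GENCODE M21, which matched 1894 of 1973 identifiers. CPM used the total of all sense counts and no division by length, since a read covers a mature strand. Genes with 10 or more counts over both libraries were tested by a two-sided exact binomial test with Benjamini-Hochberg adjustment at 0.05. The test was tried on counts simulated with counting error alone, so that trial does not cover spread beyond it. Log2 ratios between libraries used a prior count of 0.5, as did ratios of genes. edgeR 4.0.16 gave TMM factors and DESeq2 1.42.0 alternative size factors, in R 4.3.3. The quasi-likelihood test of edgeR was not used, since 1 library a side leaves no residual degrees of freedom. RNAfold 2.7.2 gave folds, and Python 3.11.15 with scipy 1.17.1 the rest. No p-value compares conditions: each compares these 2 libraries.

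The members and lists were chosen with earlier results of these data known. Named genes were the members, their nearest genes in level, seed sharers, the top 3 of each other imprinted list, the fixed cell type markers and the host genes. Alternatives covered the denominator, the scaling, the strand, the filter, the pseudocount, the detection level, the seed length, an overdispersed test and each library left out.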

Additional observations from a re-analysis of the deposited data

Results flagged for a closer look

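Reads appeared in the opposite-strand column, which the comparisons did not use, at the Dlk1-Dio3 genes set beside the members. That column held 40665 counts there in replicate 2 and 30886 in replicate 1, well over the limit of 3 counts behind a value of 0, and held 0 at the Sfmbt2 genes. With both strands counted, the Dlk1-Dio3 share was 5.93% in replicate 2 and 5.44% in replicate 1, against 4.89% in replicate 2 and 4.52% in replicate 1 from sense counts.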

How the results depend on the processing

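With all reads as the denominator the mean levels were 50854.5 for Mir335, 3594 for Mir296, 4016 for Mir298, 3122 for Mir483 and 90.2 CPM for Mir675. With Mir335 left out of the total, Mir296 stood at 8900.2, Mir298 at 9953, Mir483 at 7730 and Mir675 at 224 CPM. With both strands in the total, Mir335 had 109380, Mir296 7729 and Mir483 6713 CPM. The log2 ratio of all paternal to all maternal imprinted hairpins, whose alternatives were chosen after seeing the data, was 1.24 with both strands. In reads credited to a single gene, it turned to −0.85 without Mir335, and to −1.15 with both strands and without Mir335. Members that differed between libraries numbered 0 with the overdispersion averaged over genes and 2 with that of the median gene, against 3. The number of genes that differed fell to 12 with the averaged overdispersion and to 48 with that of the median gene, against 90. Other carriers of a seed of bases 2 to 7 held 1.26 CPM for miR-335-3p, 0.289 for miR-296-5p and 0.917 for miR-483-3p. The ratios of the 4 hairpins to Mir675 moved by less than their SD with both strands and with a pseudocount of 0 or 5. These alternatives could hardly move them, since members had at most 1 opposite-strand count and no fewer than 617 sense counts. The number of detected members was 5 under each alternative run for it. The highest detection level tried was 100 CPM, below the 188 CPM of Mir675 in replicate 2, so another number was hardly possible. Leaving out 1 of 2 libraries always moves a mean by less than its SD, so that alternative says nothing about stability. Depth limits Mir675 most, with 652 and 617 counts. No paired analysis was possible because the series holds a single group.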
